A study of Mus musculus with 48 samples.

Results

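Myoglobin (Mb) and carbonic anhydrase 3 (Car3) were followed across 4 muscles of newborn mice that carry or lack embryonic myosin heavy chain. Both were taken by gene symbol, as 2 of the 17490 genes listed in the 4 deposited tables. They were chosen on earlier values of the same libraries, Mb for its large gap between diaphragm and limb muscles and Car3 for its fall in tibialis anterior of the knockout. Those values are therefore given below as descriptions, with no test. RNA was sequenced from the diaphragm (Dia) and from 3 limb muscles, gastrocnemius (Gastroc), quadriceps (Quad) and tibialis anterior (TA), of C57BL/6 mice at postnatal day 0. Each muscle had 6 libraries labelled MyH3delta/delta (KO) and 6 labelled wild type (WT, MyH3+/+ in the titles), 48 libraries in 8 groups. The stated aim was to find mRNAs that change when embryonic myosin heavy chain, the product of Myh3, is lost during development. The deleted stretch of Myh3 is not named in the labels, nor whether a library is 1 animal or a pool, nor which libraries of different muscles came from the same animal. P-values measure the spread between libraries, which may be partly technical. The edgeR tests across muscles treat all libraries as separate, although KO libraries with the same column number deviated together in all 4 muscles (WT libraries did so less clearly). Averages over muscles are therefore also given from limma voom with the column number of each genotype as a block (12 numbers, estimated correlation 0.374), an alternative chosen after the values were seen.

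Myoglobin is a haem protein of the globin family that binds oxygen inside heart and skeletal muscle fibres, stores it and eases its movement to mitochondria. It is typical of slow and of oxidative fast fibres. Car3 is a cytosolic carbonic anhydrase. Enzymes of that family convert carbon dioxide and water to bicarbonate and protons, and Car3 is the isoform with low catalytic activity. It is abundant in slow skeletal fibres of adult rodents, in adipocytes and in liver. Embryonic myosin heavy chain is the myosin of the first fibres and is replaced by other isoforms around birth. The diaphragm works from the first breath, while newborn limb muscles bear little load.

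Mb (ENSMUSG00000018893) lies on chromosome 15, minus strand, at 77015489 to 77050670 in the mm10 build of the tables, with 1252 exonic base pairs counted. Car3 (ENSMUSG00000027559) lies on chromosome 3, plus strand, at 14863538 to 14872351, with 1507 exonic base pairs. GENCODE M21, on the same assembly, gives Mb 6 protein-coding transcripts with 6 different starts, and Car3 1 protein-coding transcript and 2 retained-intron transcripts. The counts are over exons of the whole gene, so the starts could not be told apart. One Mb promoter window, of 3 different RefSeq starts, is shown because the gap between diaphragm and limb is one of mRNA level. It is the stretch of 250 bases upstream of the transcript start at 77022787, which RefSeq (GRCm38.p6) and GENCODE both list, at chr15:77022788-77023037, minus strand. Capitals mark E-boxes (CANNTG), the sites of myogenic basic helix-loop-helix factors, and a CCAC box (CCCCACCCC).
Mb promoter: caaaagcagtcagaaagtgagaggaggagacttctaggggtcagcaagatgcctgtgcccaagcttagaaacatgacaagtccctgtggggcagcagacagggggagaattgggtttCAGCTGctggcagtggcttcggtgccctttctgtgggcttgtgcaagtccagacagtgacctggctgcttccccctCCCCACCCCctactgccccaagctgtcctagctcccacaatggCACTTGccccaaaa
Both strands were searched. The window held 2 E-boxes, beginning 133 and 14 bases upstream of the start, and 1 CCAC box, beginning 57 bases upstream, and these did not overlap. The matches depend on the start chosen. Upstream of 77022727, also listed by both sources, 3 E-boxes begin at 193, 74 and 52 bases and the CCAC box at 117. Upstream of the RefSeq start at 77050668 there are 2 E-boxes and no CCAC box. E-boxes were present in 66.2% and the CCAC box in 5.61% of 32817 promoter windows of the same length. The NFAT core GGAAA (in 55.6% of windows), the MEF2 site (2.92%) and TATAAA (12.4%) had no match. A match describes letters in this window and is not evidence of binding. For Car3 no promoter sequence was used.

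Total counts per library, in units of 1000000, ran from 11.9 to 24.3 with a median of 16.1. Counts of Myh3 overlapped between KO and WT in all 4 muscles, for example 3786 to 5389 CPM in KO Quad and 3928 to 5507 CPM in WT Quad. As whole-gene counts over an allele of unknown extent they verify no label, and KO and WT are used as labelled. The KO libraries numbered 0 and 1 stood apart in every muscle. In Dia they held 3565 and 5399 CPM of Alb, the liver transcript for albumin, against 14.9 to 1785 CPM in the other KO libraries and 194 to 3282 CPM in WT. Their summed adipocyte markers were the lowest of the KO libraries in each muscle. Results that depend on them are given with and without them. The skeletal muscle list (Ckm, Des, Ttn and others, 9 to 11 of 11 listed per table) summed to 39770 CPM or more in KO and 38050 CPM or more in WT libraries. Of 12 heart markers, 4 or 5 were listed in each limb table, without Myl7, and 9 in the Dia table, without Nppb. In the Dia libraries the atrial light chain Myl7 ran from 0.972 to 4.34 CPM except in 1 KO library, number 3, which had 15.7 CPM. That library also had the most Myh6 (67.0 CPM, against 14.7 or less) and Nppa (9.25 CPM, against 0.215 or less), 2 transcripts typical of heart atrium. Tbx20 and Tbx5 were highest there too. Other markers of the list were not: Gata4 and Hand2 were as high or higher in 2 libraries and Myl4 in 3. Sln was lowest there, at 640 CPM, with 11 libraries above it.

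Mb was higher in the diaphragm than in the limb muscles, where it was also measured in every library. In Dia its level ran from 372 CPM through a median of 497 to 646 CPM in KO, and from 441 through 592 to 753 CPM in WT (CPM, counts per 1000000 scaled by TMM factors over all 48 libraries). The lowest Dia library stood 7.62-fold above the highest limb library in KO and 9.86-fold in WT, so the muscles did not overlap in either genotype. The share of all genes without overlap between muscles was not counted, here or below. The fitted gap between Dia and the mean of the 3 limb muscles was 3.90 on the log2 scale in KO (14.9-fold) and 4.38 in WT (20.9-fold). Mb had been chosen for this gap. Of 15090 genes tested over the 48 libraries, 53.1% differed between Dia and limb in KO and 52.9% in WT at an adjusted p of 0.05, so a difference as such was common. In bulk tissue, fewer fibres that express a gene and less RNA per fibre cannot be told apart.

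**Figure D1:**
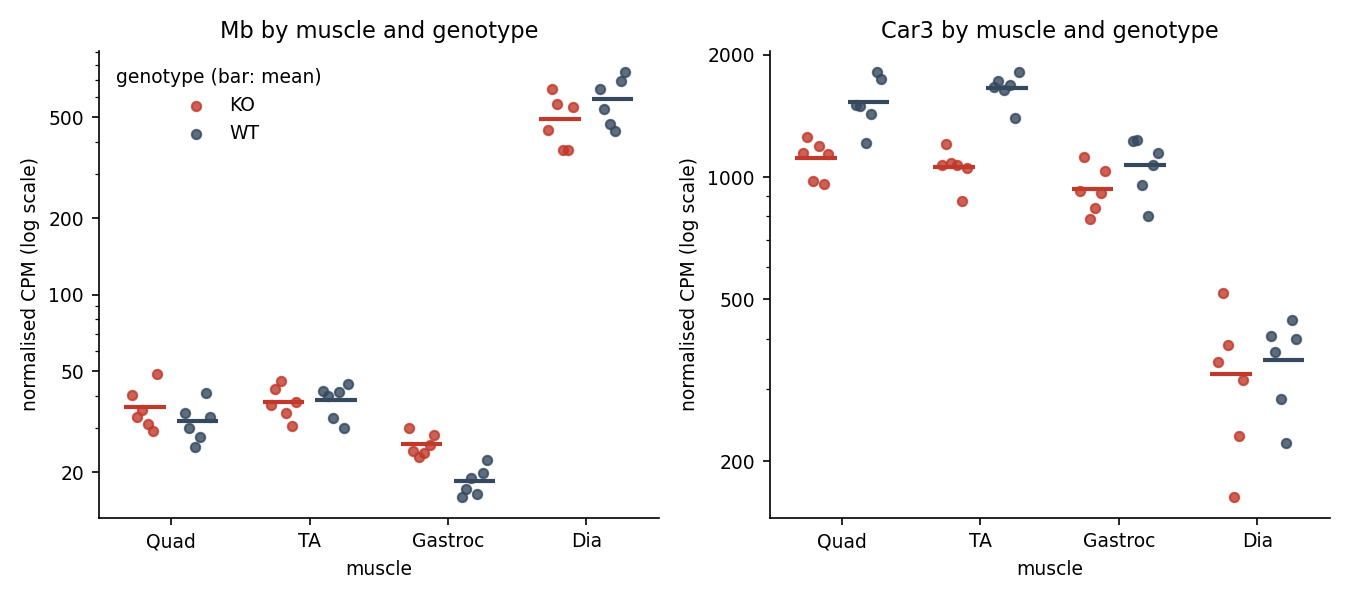
Normalised CPM of Mb (left) and Car3 (right) in each of the 48 libraries, on log axes, by muscle and genotype, with KO left of WT. Points are libraries and bars are group means. Mb is at 372 CPM or more in every Dia library and at 48.8 CPM or less in every limb library, whereas Car3 is highest in Quad and TA of WT.

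Within the limb, Mb was lowest in Gastroc. It ran from 22.9 through 24.9 to 30.0 CPM in KO Gastroc, and from 16.1 through 18.1 to 22.3 CPM in WT Gastroc. TA had 30.4, 37.5 and 45.9 CPM in KO and 29.8, 40.7 and 44.8 CPM in WT, as lowest, median and highest. Quad had 29.1, 34.1 and 48.8 CPM in KO and 25.1, 31.4 and 41.0 CPM in WT. TA and Quad overlapped widely, and both lay above Gastroc in WT with no overlap (share of all genes not counted). In WT the level in TA exceeded that in Gastroc by 1.06 ± 0.14 (log2 fold change ± SE, edgeR adjusted p = 2.99e-07), and that in Quad exceeded Gastroc by 0.79 ± 0.14 (adjusted p = 0.000101). The background of called genes was 15% for TA against Gastroc and 10.8% for Quad against Gastroc. Quad and TA differed by -0.27 ± 0.14 in WT (edgeR adjusted p = 0.740), within the spread of the libraries, where 1.19% of genes were called. In KO the gap to Gastroc was again positive, at 0.56 ± 0.14 for TA (edgeR adjusted p = 0.00460; 15% of genes called) and 0.49 ± 0.14 for Quad (adjusted p = 0.0179; 10.6% called). The call in KO Quad was lost without KO libraries 0 and 1 (0.51, adjusted p = 0.0736), without KO Quad library 5 (0.38, adjusted p = 0.0889) and with library totals in place of TMM factors (0.33, adjusted p = 0.0694), a scaling that moved the median of all genes by -0.17. Quad and TA of KO differed by -0.07 ± 0.14 (edgeR adjusted p = 1.0; 1.03% called).

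Car3 ran the other way, with its highest levels in Quad and TA of WT and its lowest in Dia. In Dia it had 163, 334 and 517 CPM in KO and 222, 385 and 445 CPM in WT, as lowest, median and highest. The highest Dia library of each genotype lay below every limb library, by 1.53-fold in KO and 1.81-fold in WT. The gap of Dia to the limb mean was -1.66 on the log2 scale in KO and -1.98 in WT, given without a test because it contains TA, on which Car3 was chosen. Against Quad and Gastroc alone, Car3 in Dia fell by 1.64 ± 0.15 in KO (edgeR adjusted p = 7.19e-13; 25.3% of genes called lower) and by 1.85 ± 0.15 in WT (edgeR adjusted p = 2.53e-14; 24.9% called lower).

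Within the WT limb, Car3 ran from 1212 through 1500 to 1814 CPM in Quad, from 1397 through 1679 to 1813 CPM in TA and from 804 through 1109 to 1232 CPM in Gastroc. Quad and TA were close together and Gastroc was lower. TA exceeded Gastroc by 0.63 on the log2 scale with no overlap (share of all genes not counted). Quad and TA differed by -0.11. Both are given without a test because Car3 was chosen on TA. Quad exceeded Gastroc by 0.51 ± 0.16 (edgeR adjusted p = 0.0260) with overlap. That call was lost with library totals (0.35, adjusted p = 0.0802) and without any 1 of 4 WT libraries, Quad 4 or 5 or Gastroc 2 or 3, at 0.44 and above. In KO, Quad and Gastroc differed by 0.25 ± 0.16 (edgeR adjusted p = 0.371), a gap that did not pass the test.

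Per length, the order of the genes turned round between limb and diaphragm. In FPKM (counts per kilobase of exon and per 1000000 counts of the table), Car3 averaged 201 ± 66.9 in KO Dia and 222 ± 54.3 in WT Dia (SD, n = 6), below Mb at 365 ± 69.5 in KO Dia and 444 ± 92.9 in WT Dia. In the limb, mean Car3 lay between 631 and 723 FPKM over the KO groups and between 728 and 1004 FPKM over the WT groups. Mean Mb lay between 20.9 and 28.4 FPKM in KO and between 15.1 and 27.7 FPKM in WT limb muscles. The ratio of the 2 genes was taken within each library, where library scaling drops out. In Dia, Car3 was at 0.543 times Mb in KO and 0.512 times Mb in WT (medians). In Quad it was 25.5 times Mb in KO and 40.8 times in WT, in TA 23.7 and 34.8 times, and in Gastroc 29.4 and 43.6 times.

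Between genotypes, the Mb groups did not overlap in Gastroc. All 6 KO Gastroc libraries exceeded all 6 WT Gastroc libraries, with means of 25.8 ± 2.75 CPM in KO and 18.5 ± 2.41 CPM in WT (SD, n = 6). Such a lack of overlap was seen for 0.534% of 14611 genes. The log2 fold change was 0.48 ± 0.10, which missed the threshold over all genes (edgeR adjusted p = 0.10; 0.151% of genes called). It passed with DESeq2 (adjusted p = 0.00362) and with limma voom (adjusted p = 0.0270), and the alternatives ranged from 0.00362 to 0.217. The authors' deposited table, also based on DESeq2, gives 0.41 with an adjusted p of 0.00339. The separation held in every library, while the call depended on the model.

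In the other muscles the Mb levels of KO and WT overlapped. In Quad, 4 of 6 KO libraries lay above the WT median, and the log2 fold change was 0.20 ± 0.14 (edgeR adjusted p = 0.920). No gene of 14710 was called in Quad by edgeR, or 0%, while 1006 genes had an unadjusted p under 0.05, DESeq2 called 71 and limma voom 6. In TA the means were 38.0 ± 5.60 CPM in KO and 38.5 ± 5.81 CPM in WT, which is a log2 change of -0.02 ± 0.12 (edgeR adjusted p = 0.995; 0.0973% of genes called), and its sign turned under several alternatives. In Dia 5 of 6 KO libraries lay below the WT median, at -0.27 ± 0.17 (edgeR adjusted p = 1.0; 0.0069% called).

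Car3 had lower means in KO than in WT in all 4 muscles, with the widest gap in TA. In TA, where it was chosen for that fall, Car3 ran from 875 through 1074 to 1206 CPM in KO and from 1397 through 1679 to 1813 CPM in WT. The 2 groups did not overlap, and the log2 fold change was -0.64 (0.661% of 14383 genes did not overlap in TA). The KO against WT tests of Car3 in the other muscles, alone or averaged, are not separate from that choice. KO libraries of the same number deviated together in all 4 muscles. In Quad, Car3 had 964, 1142 and 1255 CPM in KO and 1212, 1500 and 1814 CPM in WT, as lowest, median and highest. Only 1 KO Quad library reached the WT range, and the other 5 lay below it. The change in Quad was -0.45 ± 0.10, short of the threshold (edgeR adjusted p = 0.147). DESeq2 called it (adjusted p = 0.00915), and so did edgeR without KO libraries 0 and 1 (-0.51, adjusted p = 0.0455), in a range of 0.00915 to 0.455 over the alternatives. The authors' deposited table gives -0.39 with an adjusted p of 0.00753.

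In Gastroc 5 of 6 KO libraries had less Car3 than the WT median, with means of 936 ± 122 CPM in KO and 1073 ± 168 CPM in WT and a change of -0.20 ± 0.11 (edgeR adjusted p = 0.828). In Dia the means were 328 ± 124 CPM in KO and 355 ± 84.5 CPM in WT, which is a log2 change of -0.12 ± 0.25 (edgeR adjusted p = 1.0). One KO Dia library, number 3, had both the lowest Car3 (163 CPM) and one of the 2 lowest Mb levels (373 CPM), and without it the Car3 change in Dia was 0.02. That library also had the lowest skeletal muscle sum of its group, 46000 CPM against 52300 to 59160 CPM in the other KO and 48240 to 58980 CPM in the WT Dia libraries. It is the library with the most Myl7, Myh6 and Nppa, but the least Sln, of the heart markers listed for Dia. The part of muscle content and of heart tissue in its levels was not tested.

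Adipocytes also express Car3, and the adipocyte list was measured beside it. In Quad its 10 listed markers of 12 (Lep and Adrb3 were not listed) summed to 443 to 1314 CPM in KO and 726 to 846 CPM in WT, so the KO range enclosed the WT range. Gene by gene, 3 of the 10 in Quad had a log2 fold change above 0 (median -0.64) and edgeR called 0. There 2 had an unadjusted edgeR p under 0.05, against 6.84% of all genes. In TA 4 of 4 tested were above 0 (median 0.40), in Gastroc 3 of 4 (0.21) and in Dia 3 of 5 (0.26). The TA values lack Adipoq, Plin1, Cfd, Lep, Cidec, Retn and Adrb3, which were not listed there. For Dia, Plin1, Cfd, Lep, Retn and Adrb3 were not listed. Adipoq, the adipocyte hormone adiponectin, had 0.123 to 8.92 CPM in KO Quad and 3.20 to 25.0 CPM in WT Quad. In Dia the summed list ran from 786 to 2354 CPM in KO and from 1219 to 1498 CPM in WT, with Adipoq at 1.34 CPM or less in every Dia library. In the 2 KO Quad libraries with the lowest adipocyte sums, Car3 was at 1144 and 1255 CPM, against a KO median of 1142 CPM. Adipoq was at 0.168 and 7.49 CPM in these libraries. KO Quad library 4, with the lowest Adipoq (0.123 CPM), had the highest adipocyte sum (1314 CPM) and the lowest Car3 (964 CPM). The part of adipocytes in the Car3 values was not tested.

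**Figure D2:**
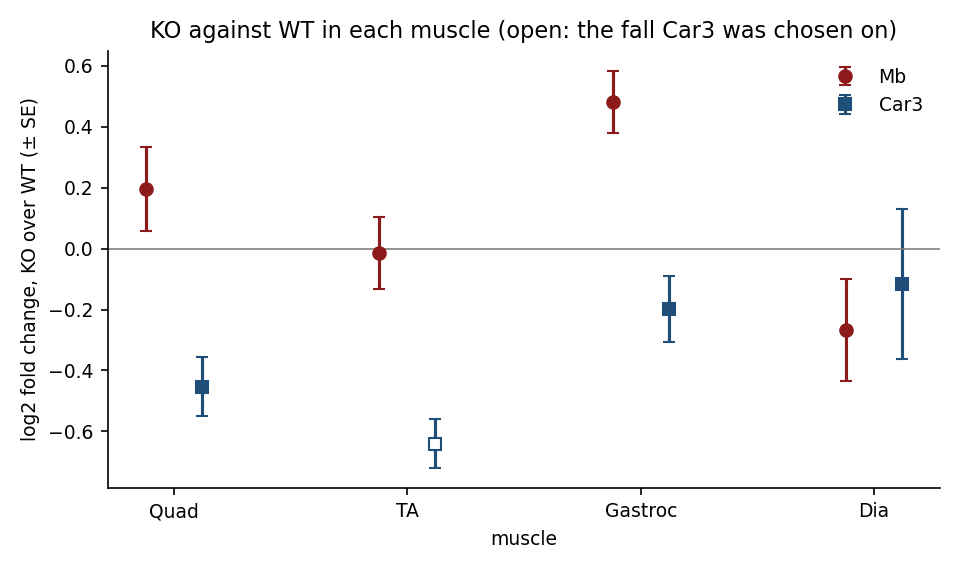
Log2 fold change of KO over WT (± SE) from edgeR for Mb (circles) and Car3 (squares) in each muscle. The open square is Car3 in TA, the value it was chosen on. Mb is highest in Gastroc at 0.48 and Car3 lies below 0 in all 4 muscles, from -0.64 in TA to -0.12 in Dia.

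Across muscles, the KO effect on Mb averaged 0.10 ± 0.07 (edgeR adjusted p = 0.462; 7.11% of genes called). With the column number as a block it was again 0.10 (limma adjusted p = 0.913; 0.411% called). Its spread over the 4 muscles, from -0.27 in Dia to 0.48 in Gastroc, had an unadjusted p of 0.00410 but an adjusted p of 1.0 in edgeR, where 0.0133% of genes were called. The effect in Dia was 0.48 ± 0.16 lower than the limb mean (unadjusted p = 0.00399, edgeR adjusted p = 0.937). For that contrast edgeR called 0% of genes, with 456 under an unadjusted p of 0.05. For Car3 the mean over Quad, Gastroc and Dia was -0.26 ± 0.09 (edgeR adjusted p = 0.107; 3.87% called). Without KO libraries 0 and 1 of each muscle it was -0.38 and passed (adjusted p = 0.00367). It also passed when a single Dia library was left out, KO 1 (-0.32, adjusted p = 0.0204) or WT 3. With the column number as a block it was -0.27 (limma adjusted p = 0.609). The Car3 effect was not shown to differ among these 3 muscles (unadjusted p = 0.282, edgeR adjusted p = 1.0; 0% called, 218 genes under an unadjusted p of 0.05).

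The ratio of Mb to Car3 within a library separated the genotypes in the limb. In Quad it ran from 0.0313 through 0.0394 to 0.0516 in KO and from 0.0227 through 0.0245 to 0.0276 in WT. In Gastroc it ran from 0.0261 through 0.0340 to 0.0391 in KO and from 0.0157 through 0.0229 to 0.0246 in WT. All KO libraries were above all WT libraries in both muscles. The share of all gene pairs whose ratio separates in this way was not counted. The ratio was 1.56-fold higher in KO Quad (log2 difference 0.64) and 1.60-fold higher in KO Gastroc (0.68). Each had an exact two-sided permutation p of 0.00216, the smallest that 924 splits allow, and 0.00325 after adjustment over the 3 muscles tested. These p-values are not separate from the choice of Car3 on TA, because KO libraries of the same number deviated together across muscles. In TA, which contains the chosen fall of Car3, the difference was 0.63, also without overlap. In Dia the ratio ran from 1.503 through 1.85 to 2.75 in KO and from 1.75 through 1.95 to 2.40 in WT, with overlap and a difference of -0.10 (exact permutation p = 0.511).

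The KO effect on the ratio differed between limb and diaphragm. The log2 difference in Quad exceeded that in Dia by 0.74, and that in Gastroc exceeded Dia by 0.78. The exact permutation p, with labels exchanged within each muscle, was 0.00369 for Quad and 0.00360 for Gastroc, and 0.00554 for both after adjustment over 3 pairs. Quad and Gastroc differed by -0.04 (exact permutation p = 0.916). This comparison was added after the values were seen, and its adjustment covers 3 pairs, not all genes. Neither gene alone was called in edgeR for a KO effect that differs among muscles. KO libraries of the same number deviated together across muscles. Quad and Gastroc are therefore not separate from TA, on which Car3 was chosen. Taken within column numbers, with genotype permuted over the 12 numbers, the exact p was 0.0108 for Quad and 0.00216 for Gastroc. Without KO libraries 0 and 1 the gaps to Dia were 0.63 (exact p = 0.0271) for Quad and 0.65 (exact p = 0.0280) for Gastroc.

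**Figure D3:**
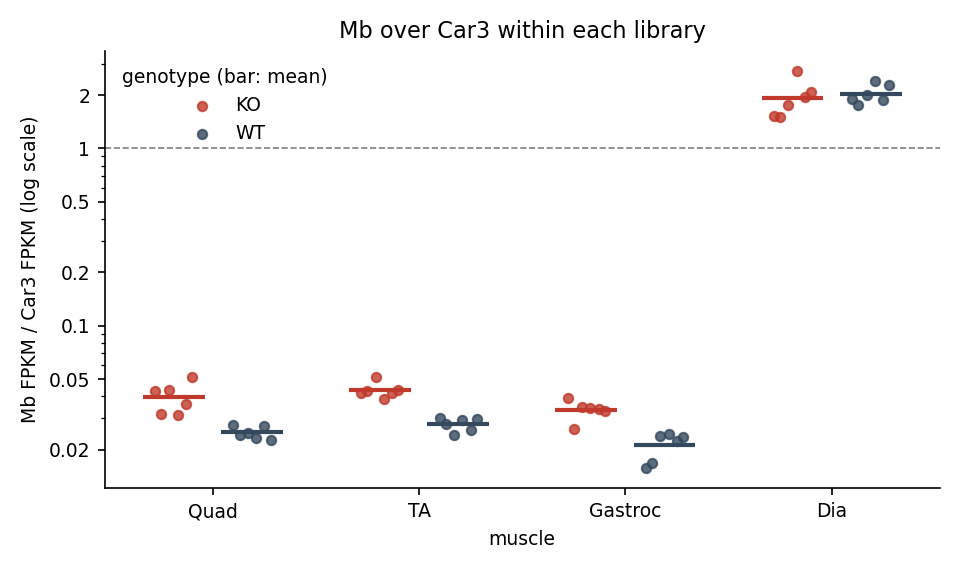
Ratio of Mb FPKM to Car3 FPKM within each library, on a log axis, by muscle with KO left of WT; points are libraries, bars are means and the dashed line marks equal values. KO lies above WT without overlap in Quad, TA and Gastroc, while the groups overlap in Dia, where the ratio is above 1.

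Between groups the 2 genes moved in opposite ways, and within groups they moved together. Over the 8 group means the Pearson r of log2 CPM of Mb and Car3 was -0.91, which mostly sets Dia against limb. After subtraction of each group's mean, r over the 48 libraries was 0.69, the highest of any of 9205 named genes with a mean of at least 10 CPM to Mb. It was 0.67 in the 24 KO libraries, 0.73 in the 24 WT libraries and 0.71 in the 40 left without KO libraries 0 and 1. By muscle, over 12 libraries each, it was 0.58 in Quad, 0.82 in TA, 0.22 in Gastroc and 0.88 in Dia. These are descriptions, with no test, because the points share their library, its depth and its mix of tissue, and KO libraries of the same number may share an animal.

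**Figure D4:**
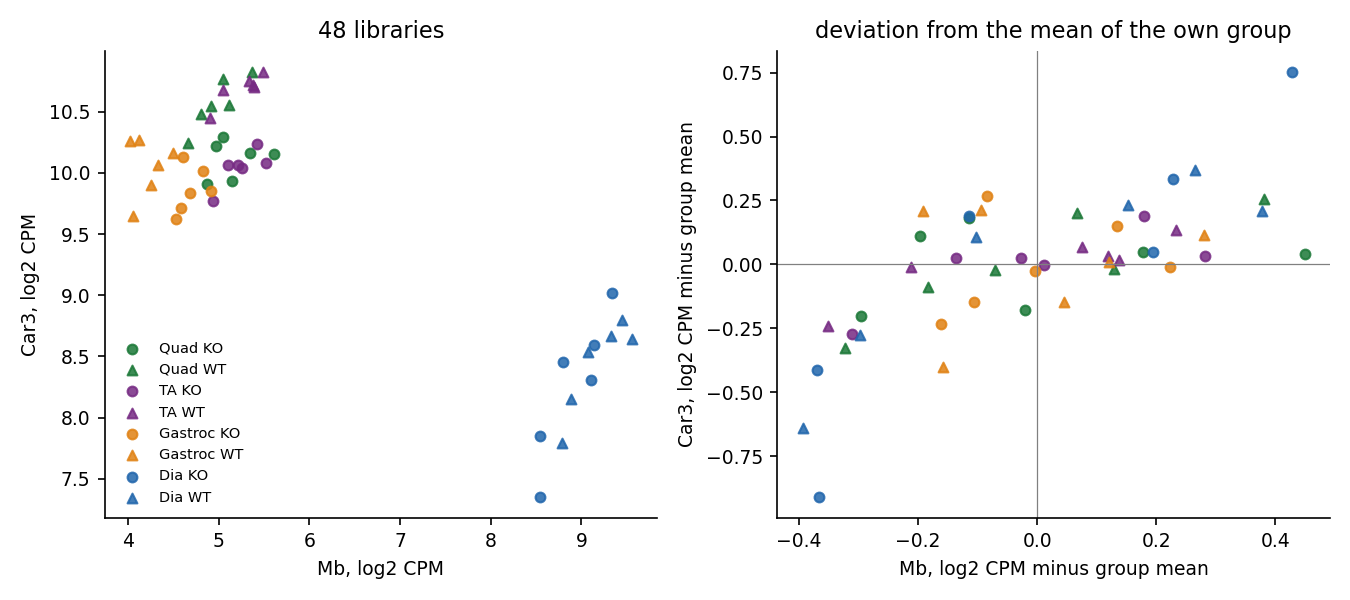
Log2 CPM of Car3 against Mb in the 48 libraries (left), and the same after subtraction of each group's mean (right); colours are muscles, circles KO and triangles WT. Dia libraries sit apart at high Mb and low Car3, while within groups both genes deviate in the same direction (r = 0.69).

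After Car3, the genes most like Mb within groups were Malat1 (0.67), Pcdh17 (0.67), Pdlim1 (0.66), Padi2 (0.66), Tead1 (0.65), Myh2 (0.64) and Rrp1b (0.64). Malat1 is a nuclear long noncoding RNA, Tead1 a transcription factor of the TEA domain family and Myh2 the myosin of oxidative fast fibres. The lowest values were those of Clip3 (-0.69), Smarcd2 (-0.68) and Zfp553 (-0.67). For Car3 the most like were Padi2 (0.85), Dnajb4 (0.76), Uba2 (0.75), Nes (0.72), Hspb3 (0.71), Nedd9 (0.71), Adamts8 (0.71) and Shisa4 (0.71), with Mb in rank 10. Padi2 is an enzyme that converts arginine to citrulline in proteins, and Hspb3 a small heat shock protein of muscle. The lowest for Car3 were Zfp143 (-0.68), Kri1 (-0.68) and Parn (-0.67).

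Padi2 followed Car3 between muscles too, with 26.8 ± 7.05 CPM in KO Dia and 17.9 ± 5.04 CPM in WT Dia, against 115 ± 7.35 CPM in KO Quad and 137 ± 18.5 CPM in WT Quad. It fell by 2.79 ± 0.13 on the log2 scale in Dia against limb of WT (edgeR adjusted p = 5.94e-23). Its KO effects did not pass in any muscle, at -0.24 in Quad, -0.19 in TA, -0.01 in Gastroc and 0.58 in Dia (edgeR adjusted p from 0.367 to 1.0). Over the 8 group means alone, the patterns most like Mb were those of Kxd1, Tecr, Dst, Prickle3, Serpina1e, Ltf, Pzp and Il17rc (r from 0.99 to 1.0), and least like it Vgll3, Srek1 and Eda. For Car3 they were Prmt1, Eif1ax, Robo1, Gatm, Pcolce, Naa50, Nov and Serbp1 (0.98 to 1.0), and least Zfp768, Sh3rf1 and Hbp1. Serpina1e and Pzp are liver transcripts, and the liver list summed to 144 to 11850 CPM in KO Dia and 522 to 8462 CPM in WT Dia, against 143 CPM or less in any limb library.

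Among the other carbonic anhydrases, Car14, a membrane-bound enzyme with an outward catalytic domain, had higher means in KO. In Quad it ran from 43.6 through 69.4 to 74.3 CPM in KO and from 24.6 through 39.5 to 49.3 CPM in WT. In TA it had 51.3, 72.3 and 84.4 CPM in KO and 19.7, 44.4 and 59.3 CPM in WT, in Gastroc 33.2, 39.6 and 43.1 CPM in KO and 14.6, 22.8 and 38.4 CPM in WT. In Dia it had 59.9, 78.0 and 93.1 CPM in KO and 45.1, 59.0 and 84.6 CPM in WT. All 6 KO libraries were above the WT median in each muscle, although the groups overlapped in all 4. The change was 0.78 ± 0.20 in Quad, 0.78 ± 0.24 in TA, 0.68 ± 0.20 in Gastroc and 0.36 ± 0.15 in Dia, and none passed alone (edgeR adjusted p from 0.290 to 1.0). The mean over the 4 muscles was 0.65 ± 0.11 and passed (edgeR adjusted p = 0.000136), as it did in 8 of 9 alternatives and all 48 fits without 1 library. It did not pass with the column number as a block (0.71 ± 0.18, limma adjusted p = 0.0683; 0.411% of genes called). No other of the 12 anhydrases tested beside Car3 passed in that mean, where edgeR called 7.11% of all genes.

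**Figure D5:**
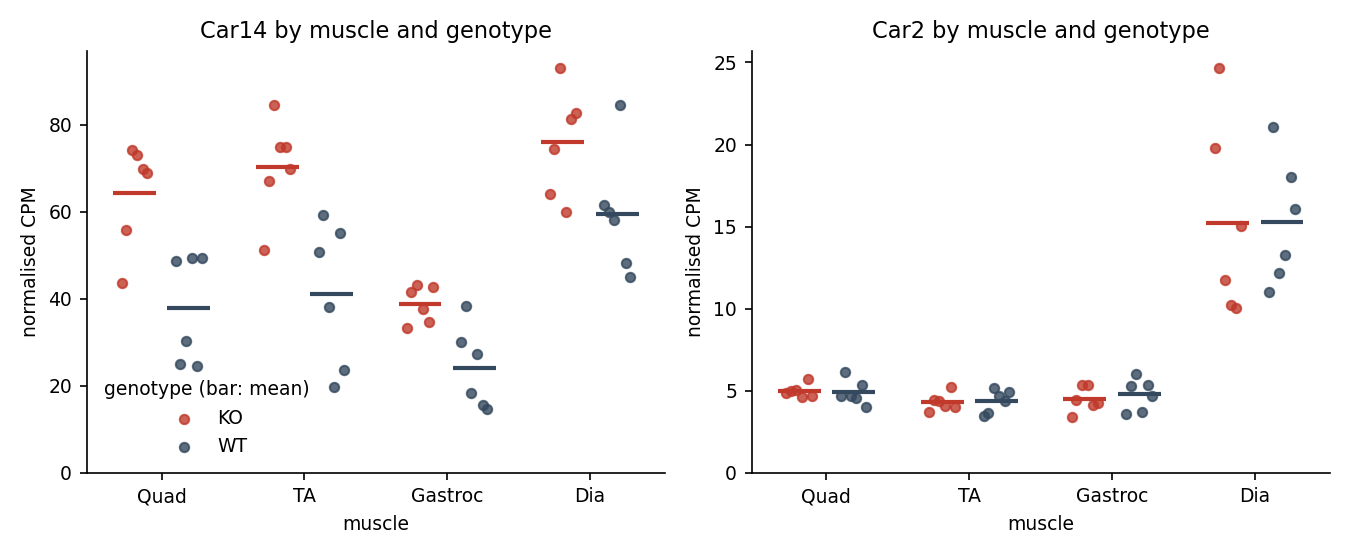
Normalised CPM of Car14 (left) and Car2 (right) in each library, on linear axes from 0, by muscle with KO left of WT; points are libraries and bars are means. Mean Car14 is higher in KO of each muscle, with overlap, and Car2 is higher in Dia than in limb of both genotypes.

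Between muscles the anhydrases split. In WT Dia against limb, 5 of 12 tested members were higher and 2 lower (27.8% of all genes were called higher and 25.1% lower), with a median log2 fold change of 0.44 against 0.00 over all genes. Car2, the highly active cytosolic form of red cells and other tissues, was higher by 1.71 ± 0.13 (edgeR adjusted p = 2.4e-15). Car14 was higher by 0.83 ± 0.17 and Car11 by 0.47 ± 0.16. Car13 was higher by 0.84 ± 0.22, but ran from 1.31 through 2.41 to 6.90 CPM in WT Dia and lost its call without KO libraries 0 and 1 and WT Dia library 1 (0.48). Car9, a membrane enzyme induced by low oxygen, fell by 2.31 ± 0.49 to 2.01 ± 0.61 CPM in WT Dia (SD, n = 6), against means of 8.33 in Quad, 13.3 in TA and 9.07 CPM in Gastroc of WT. Car10, which lacks the catalytic residues, fell by 2.47 ± 0.33 to 0.287 ± 0.197 CPM in WT Dia, against 1.55, 1.11 and 2.88 CPM in the same limb muscles. In KO against WT, none of the 12 members tested in Quad, TA and Gastroc or the 11 tested in Dia passed. Of all genes, 0% were called in Quad, 0.0973% in TA, 0.151% in Gastroc and 0.0069% in Dia, so the absence of calls is near the background.

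Among the globins, all 6 tested members were higher in WT Dia than in limb, with a median log2 fold change of 1.21 (27.8% of all genes were called higher). Cygb, cytoglobin, a globin of fibroblast-like cells, was higher by 0.45 ± 0.08 and Ngb, neuroglobin, by 0.93 ± 0.32. The haemoglobin genes Hba-a1, Hba-a2, Hbb-bs and Hbb-bt were higher by 1.19 to 1.37, below the 4.38 of Mb, and as near-identical pairs their reads can be split unevenly. The erythroid marker list summed to 220 to 463 CPM in KO Dia and 258 to 385 CPM in WT Dia, against 316.5 to 547 CPM in limb libraries, but with 10 of its 12 markers listed for Dia and 5 to 7 for the limb muscles. Gene by gene, 3 of 5 tested erythroid markers were higher in WT Dia than in limb and 2 lower, with a median of 1.43. Slc4a1 was among those higher, at 4.91 ± 0.34. Of all genes, 25.1% were called lower. Ahsp and Epb42, which define red cell precursors, were in no table. The part of blood in the haemoglobin values was not tested. No globin of the 5 tested passed between KO and WT in any muscle, against 0% to 0.151% of all genes called. In Quad, 3 of the 5 had an unadjusted edgeR p under 0.05, against 6.84% of all genes, with a median log2 fold change of -0.28.

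Lists chosen around oxygen use held more higher than lower calls in Dia, where 27.8% of all genes were called higher and 25.1% lower. In WT Dia against limb, 13 of 16 genes of fatty acid uptake and oxidation were higher and 0 lower (median 0.79), and 18 of 20 of the respiratory chain and citrate cycle were higher and 0 lower (median 0.69). Of haem synthesis and handling, 9 of 18 were higher and 1 lower, led by Slc48a1, a haem transporter (0.86), and Alas1, the rate-limiting enzyme of haem synthesis (1.00). Of the calcineurin, MEF2 and PGC-1 regulators, 11 of 20 were higher and 4 lower, with the nuclear receptor Esrrg at 1.91 and the coactivator Ppargc1a at 1.90. Of the hypoxia list, 7 of 16 were higher, among them Egln3 (1.75) and Bnip3 (1.38), and 1 lower, Hif3a (-0.50). Of the transport list, 4 of 13 were higher, near the background, and 2 lower. The lactate carrier Slc16a1 was at 1.29 and Slc4a1, also on the erythroid list, at 4.91. Antioxidant enzymes had 12 of 18 higher and 2 lower, led by Gpx3 at 2.22. Slow fibre genes had 6 of 11 higher and 3 lower, and fast fibre genes 11 of 13 higher and 0 lower. Marker lists of cell types moved in the same comparison. Skeletal muscle markers had 6 of 9 tested higher and 1 lower (median 0.36), endothelial 7 of 8 higher, adipocyte 5 of 5 (median 1.53), macrophage 4 of 7, mesothelium 3 of 3 (median 5.97) and liver 10 of 10 (median 7.55), while tendon and cartilage had 7 of 8 lower. Their part in these counts was not tested.

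Within the limb, the respiratory chain list was higher in TA and Quad than in Gastroc. In WT TA against Gastroc, 20 of 20 of its genes were higher (9.71% of all genes were called higher; median 0.67, against -0.02 over all genes), as were 12 of 13 fast fibre and 6 of 11 slow fibre genes. Cox7a1, a muscle subunit of cytochrome oxidase, was higher by 1.83 ± 0.13 and Alas1 by 0.85 ± 0.13. In WT Quad against Gastroc, 20 of 20 respiratory chain genes and 12 of 13 fast fibre genes were higher (7.29% of all genes). Quad against TA had 4 of 11 slow fibre genes lower (0.623% of all genes) and 0 of 20 respiratory chain genes called by edgeR, with 3 of these under an unadjusted p of 0.05. Skeletal muscle markers moved with the list: 7 of 9 were higher in WT TA than in Gastroc (median 0.61) and 8 of 9 in WT Quad than in Gastroc (median 0.54). The part of muscle content in these counts was not tested.

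Between genotypes these lists held few calls. In TA, 4 of 11 slow fibre genes fell in KO (0.0417% of all genes fell): Myl2 (-1.36), Myl3 (-0.84), Tnnc1 (-0.59) and Tpm3 (-0.46), which encode myosin light chains, slow troponin C and slow tropomyosin. Slc2a1, the glucose carrier GLUT1, rose by 0.89 in TA and Mylk2, a skeletal myosin kinase, by 0.75. In Gastroc, Csrp3, a muscle LIM protein, rose by 0.96 and Myh2 by 1.35. The calls of Slc2a1, Mylk2, Tpm3, Csrp3 and Myh2 were lost in at least 6 of 12 fits without 1 library. Averaged over the 4 muscles in edgeR, 5 of 16 hypoxia genes rose in KO and 0 fell (of all genes 4.7% rose and 2.41% fell; median 0.13 against 0.00 over all genes), led by Slc2a1 (0.87), Hif3a (0.78), Egln3 (0.68) and Ndrg1 (0.32), which also passed without KO libraries 0 and 1. Of slow fibre genes 5 fell and 1 rose, and of fast fibre genes 2 rose and 2 fell. With the column number as a block, 62 genes or 0.411% passed in place of 1073. Among them were 2 hypoxia genes, Slc2a1 (0.86, limma adjusted p = 0.0291) and Hif3a (0.82, adjusted p = 0.0287), and 5 slow fibre genes, of which Myl3, Tpm3, Myl2 and Tnnc1 fell and Csrp3 rose (adjusted p from 1.94e-05 to 0.0276). Ppargc1a was at 0.62 ± 0.12 and Slc25a38, the mitochondrial glycine carrier of haem synthesis, at 0.42 ± 0.08, with edgeR calls lost under the block (limma adjusted p = 0.228 and 0.205). The haem-degrading enzyme Hmox1, at -0.35, was called in 3 of 9 alternatives and 14 of 48 fits without 1 library. Of fatty acid genes, Acadm (-0.20) was called in edgeR but neither under the block nor without KO libraries 0 and 1. None of 20 respiratory chain genes, 18 antioxidant enzymes, 13 transport genes or 6 globins passed in that mean.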

How the data were processed

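Poly(A) RNA of 48 flash-frozen muscles was sequenced from stranded TruSeq libraries, per the labels' protocols. The submitters' processing notes name Picard and mm10. No aligner or its settings are given in the sources used here. The authors deposited whole-number counts per gene over exons, made with USeq, per the file headers. The authors' log2 ratios come from DESeq2, and their adjusted p-values, deposited as a negative log10 score, were turned back into p-values, per the file headers. The file headers state that genes under 10 counts or over a high count limit were left out, so Acta1 is missing from 3 tables, which moves FPKM between muscles but not a ratio within a library. FPKM were computed here from the counts, the exonic length and each table's total, although the deposited FPKM had been planned. The deposited FPKM and log-transformed values, 96 columns, were not used.

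Counts were tested with edgeR 4.0.16 (TMM factors, low-count filter, robust quasi-likelihood fit, R 4.3.3) with Benjamini-Hochberg adjustment over all genes and calls at 0.05. KO was set against WT in 1 fit per muscle of 12 libraries. Muscles were compared, and effects averaged or compared across muscles, in 1 fit of 8 groups and 15192 genes listed in all 4 tables. CPM are from that joint scaling, and an SE is the log2 fold change divided by the root of F. The Mb to Car3 FPKM ratio was tested by exact permutation. Its comparison between muscles was added after its values were seen. DESeq2 1.42.0 and limma 3.58.1 served as alternatives, with other scalings, filters, a term for the sex read from the libraries, and samples left out. The test of Car3 in WT Dia against Quad and Gastroc and the block on column numbers were added after values were seen. Whether column numbers pair muscles was checked on deviations from group means. In KO, same-numbered libraries correlated at 0.363 or more in every pair of muscles, and each correlated best with its own number. In WT the lowest such r was -0.382 and the median ran from -0.126 (Quad and TA) to 0.321 (TA and Gastroc). Of 6 WT libraries, 1 (Quad and TA) to 4 (TA and Gastroc) correlated best with their own number. Whether WT numbers pair muscles was therefore not settled. The block and the permutation within column numbers nevertheless use the WT numbers as well. The fits and the permutation test were tested on simulated data.

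The members and gene lists were chosen with earlier results of these data known. Named from each list are up to 4 called genes per direction, and the 8 most and 3 least like genes in each measure. A gene counted from whole exons cannot be assigned to an isoform. No 2 libraries of a group were alike within sampling noise in 120 pairs checked (chi-square per degree of freedom 5.33 to 78.7).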

Additional observations from a re-analysis of the deposited data

Results flagged for a closer look

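The KO effect on the Mb to Car3 ratio was higher in Quad and Gastroc than in Dia, in a comparison added after the values were seen. The log2 difference between KO and WT was 0.64 in Quad and -0.10 in Dia, a gap of 0.74 (exact permutation p = 0.00369, adjusted over 3 pairs 0.00554). In Gastroc it was 0.68, a gap to Dia of 0.78 (exact permutation p = 0.00360, adjusted 0.00554). All 6 KO libraries lay above all 6 WT libraries in Quad and in Gastroc (share of all gene pairs not counted), and the groups overlapped in Dia. That permutation treats muscles as separate, although KO libraries of the same number deviated together, also with TA, on which Car3 was chosen. Neither Mb nor Car3 alone was called in edgeR for a KO effect that differs among muscles. Taken within column numbers, the exact p was 0.0108 for Quad and 0.00216 for Gastroc. Liver markers summed to 144 to 11850 CPM in KO Dia and 522 to 8462 CPM in WT Dia, against 143 CPM or less in any limb library. Their part in this gap was not tested beyond leaving out KO libraries 0 and 1, which gave 0.63 for Quad and 0.65 for Gastroc. No library stood apart within its group by Dixon's criterion for Mb, Car3 or their ratio. These were 24 sets of 6 libraries, where chance alone flags about 1 in 20.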

How the results depend on the processing

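Of 310 recomputed values of 36 results under 16 settings, 295 counted as the same. For a tested change this meant the same direction and the same side of the threshold. Values without a p, FPKM among them, had to keep their direction and move less than a set margin. A test of a difference among muscles had only its side of the threshold to keep. Direction turned for Mb in TA, KO against WT, with library totals (0.000423) and limma voom (0.0476), and without 1 library (-0.0784 to 0.0468). It turned in FPKM, an alternative chosen after seeing the data, for Mb in KO Quad against TA (0.0256) and for Car3 in WT Quad against TA (0.0114), and for the Dia ratio without KO libraries 0 and 1 (0.0557, exact p = 0.686). For Car3 in Dia, KO against WT, leaving out 1 library gave -0.29 to 0.0171. The deposited FPKM, planned as an alternative, were not run. None of these had been called.

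Calls were gained for Mb in Gastroc with DESeq2 (0.48) and limma voom (0.54), for Car3 in Quad with DESeq2 (-0.46) and without KO libraries 0 and 1 (-0.51), and for Car3 over Quad, Gastroc and Dia without those libraries (-0.38), also without WT library 1 of Dia (-0.38), and with 1 library left out (-0.32 to -0.21). Calls were lost for Mb in KO Quad against Gastroc with library totals (0.33), without KO libraries 0 and 1 (0.51), also without WT library 1 of Dia (0.51), and with 1 library left out (0.38 to 0.55). Car3 in WT Quad against Gastroc lost its call with library totals (0.35) and with 1 library left out (0.44 to 0.57). Library totals moved the median of all genes by -0.17 for Quad and -0.21 for TA against Gastroc in WT. The cause was not tested.

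Without KO libraries 0 and 1, edgeR called 148 genes in Quad against 0 with all libraries, 224 in TA against 14, 103 in Gastroc against 22, 82 in Dia against 1, and 4561 in the mean over 4 muscles against 1073. With the column number as a block, added after seeing the data, that mean had 62. DESeq2 with all libraries called 71 genes in Quad, 110 in TA, 94 in Gastroc and 28 in Dia, limma voom called 6, 27, 28 and 2, and 1 edgeR fit of all 48 libraries called 16 in Quad, 35 in Gastroc and 29 in Dia. With 1 library left out, the counts were 0 to 2 in Quad, 4 to 26 in TA, 9 to 26 in Gastroc and 0 to 4 in Dia. No paired analysis was possible because the count columns, numbered 0 to 5, are not tied to the replicate numbers of the labels. The block on column numbers changed no call of Mb, Car3 or their ratio. At this depth Mb had at least 259 reads in each library, so counting error was small beside the spread between libraries.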
